A study of Mus musculus with 22 samples.

Results

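The secreted Wnt antagonists are 9 genes, the secreted frizzled-related genes Sfrp1, Sfrp2, Sfrp4, Sfrp5 and Frzb, the Wnt inhibitory factor gene Wif1, and the Dickkopf genes Dkk1, Dkk2 and Dkk3. Their methylation was read at every CpG position that was covered in all 22 samples and lay in the body of such a gene or within 2 kb of any of its RefSeq transcription start sites (TSS). This gave 327 of 1140639 positions, 264 of them within 2 kb of a TSS (promoter) and 63 further inside a gene (body). The study followed mammary tumor progression with enhanced reduced representation bisulfite sequencing (ERRBS), in which DNA cut at CpG-rich sites is bisulfite-converted and each cytosine is scored by the reads that kept it as methylated. The cases were F1 female PyMT mice, heterozygous for the MMTV-PyMT transgene. It drives the polyoma virus middle T antigen from a mammary tumor virus promoter in the mammary epithelium. The cases came from FVB/N transgenic males crossed to FVB females, so cases and controls share the FVB background. Glands were taken at week 6 (hyperplasia, n = 2), week 8 (adenoma/MIN, n = 3), week 10 (early carcinoma, n = 3) and week 12 (late carcinoma, n = 2), and the controls were age-matched FVB females (n = 3 at each week). A second label calls the week 6 PyMT glands carcinoma, and the stage label was used.

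Wnt proteins signal by bridging a Frizzled receptor and the co-receptor LRP5 or LRP6, which stabilizes beta-catenin. Sfrp proteins and Wif1 bind Wnts outside the cell, whereas Dkk1 and Dkk2 occupy LRP5/6, and Dkk3 is a divergent family member that is not a typical antagonist. Dense methylation at a CpG-rich start site is generally associated with a silent gene, and promoters of this family are among those often studied for hypermethylation in human cancers.

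Whole tumors or glands were used, so a change within a cell type and a change in the mix of cell types cannot be told apart. Mean coverage of the 327 positions was 64.8 to 92.9 reads per sample, and no position had fewer than 10 reads. The FVB week 8 replicate 2 sample stood apart, with a root mean square distance of 7.73 points from the mean of the other FVB samples over all common positions, against 4.61 to 6.40 points for the other 11 FVB samples. Leaving it out kept the number of antagonist promoters called higher at 6.

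Some stretches named in the results are given from the mm10 reference (GRCm38.p6), in the direction of transcription, with the CpGs covered in all samples in capitals. The Dkk3 stretch with the largest difference between PyMT and FVB (47.3 points over all stages, chr7:112159014-112159131) is not printed. The first 3 gained methylation in PyMT and hold 12, 20 and 4 covered positions, counting the strands of a CpG separately. They lie in and just before the second exon of Dkk3 (chr7:112158300-112158433, minus strand), in the coding sequence of Sfrp2 (chr3:83766804-83767033, plus strand) and upstream of Frzb (chr2:80448329-80448482, minus strand).
Dkk3 exon: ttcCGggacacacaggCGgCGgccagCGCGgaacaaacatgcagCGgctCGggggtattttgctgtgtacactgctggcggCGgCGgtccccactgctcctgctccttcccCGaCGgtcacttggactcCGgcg
Sfrp2 exon: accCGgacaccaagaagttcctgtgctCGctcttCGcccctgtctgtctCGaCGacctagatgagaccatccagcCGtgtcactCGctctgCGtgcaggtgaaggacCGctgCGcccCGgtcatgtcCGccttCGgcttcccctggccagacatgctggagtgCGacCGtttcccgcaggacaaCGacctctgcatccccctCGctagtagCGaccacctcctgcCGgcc
Frzb upstream: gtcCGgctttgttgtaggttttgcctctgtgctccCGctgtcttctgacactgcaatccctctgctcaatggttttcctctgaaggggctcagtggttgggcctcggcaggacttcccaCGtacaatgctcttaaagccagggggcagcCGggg
The next is the 250 bases before the Wif1 start in the RefSeq promoter table (chr10:121033754-121034003, plus strand), shown because its 26 covered positions stayed nearly unmethylated. The table held 6 of the 9 genes, without Sfrp1, Sfrp4 and Dkk3.
Wif1 promoter: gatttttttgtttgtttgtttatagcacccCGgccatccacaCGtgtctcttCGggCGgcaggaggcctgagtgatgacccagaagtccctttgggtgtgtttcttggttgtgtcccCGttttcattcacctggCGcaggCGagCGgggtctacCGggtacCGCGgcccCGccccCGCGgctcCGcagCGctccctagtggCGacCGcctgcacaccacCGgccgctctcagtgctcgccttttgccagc
The last pair are 30-base windows of the final Wif1 exon on the plus strand, shown because their CpGs moved in opposite directions. The coding window is chr10:121099795-121099824 and the 3′ UTR window is chr10:121099964-121099993.
Wif1 coding end: aggcgcCGggctggagCGacacaCGccttc
Wif1 UTR window: ctgttcattacactttagaaCGcCGgcctg

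In the normal gland the antagonist promoters were nearly unmethylated. Of the 264 promoter positions, 260 had a mean methylation level under 10% over the 12 FVB samples, and the 4 others were all in Dkk3. The 63 body positions lay between 24.3% and 99.0%. At the level of single cytosines, differentially methylated cytosines (DMCs) were those with a q-value under 0.01 by logistic regression on the pooled reads and a difference of at least 10 points between PyMT and FVB. The 327 positions held 12 hyper-DMCs and 3 hypo-DMCs in hyperplasia, against 2.62% and 6.01% of all positions called. In adenoma/MIN they held 16 and 6, against 3.2% and 7.1% of all positions. In early carcinoma there were 23 and 4, against 4.39% and 8.42%. In late carcinoma there were 23 and 3, against 4.44% and 8.53%. The shares in these genes thus ran from 3.67% to 7.03% for hyper-DMCs and from 0.917% to 1.83% for hypo-DMCs. All hypo-DMCs lay in the bodies of Sfrp1 and Wif1. A position whose FVB level is under 10% cannot lose 10 points, so few hypo-DMCs were possible at 260 of the 327 positions, and their share is not comparable with that of all positions. Dkk3 alone carried 7, 12, 13 and 15 of the hyper-DMCs at weeks 6, 8, 10 and 12. With a correction for the spread between mice, hyper-DMCs numbered 6, 10, 20 and 14, against 0.883%, 1.22%, 2.39% and 2.53% of all positions. Hypo-DMCs numbered 1, 1, 2 and 2, against 2.52%, 3.06%, 5.22% and 5.14%. Dkk3 then held 6, 9, 13 and 11 of the hyper-DMCs, and the other genes together again stayed below the share of all positions. Every PyMT sample lay above every FVB sample at 10 of the 327 positions and below at 0, against 0.654% and 2.08% of all positions. Of the 10, 9 were in Dkk3 and 1 was in Sfrp2 (chr3:83767007), with a median of 6.97% in PyMT and 1.49% in FVB.

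Promoter methylation was compared as the unweighted mean over the covered positions of each promoter, with limma across 16407 promoters and Benjamini-Hochberg adjustment over all of them. Averaged over the 4 stages, 6 of the 9 antagonist promoters were higher in PyMT (Dkk3, Sfrp5, Dkk1, Sfrp2, Frzb and Sfrp4) and 0 were lower, against 17.0% of all promoters called in each direction. None was lower at an unadjusted p under 0.05 or by the exact permutation test, which called the same number, 6, higher. The median difference over the 9 genes was 1.19 points, against -0.01 points over all promoters. By stage, Dkk3 was the only promoter called in hyperplasia, where 2.82% of all promoters were called higher. In adenoma/MIN 3 were called (background 8.75%), in early carcinoma 5 (11.6%) and in late carcinoma 4 (12.5%). At no stage did limma call any of the 9 lower, where 5.85%, 8.51%, 10.6% and 9.45% of all promoters were. Wif1 in hyperplasia was lower at an unadjusted limma p of 0.0432 (-0.41 points, SE 0.19, adjusted p = 0.220). Its PyMT samples (0.07% and 0.50%) lay below all controls of that week (0.55% to 0.82%). No promoter of the 9 had an FVB mean above 5.63% (Dkk3), so there was little room to fall. Between Dkk3 and the others the sizes differed greatly, from 21.8 points for Dkk3 to between 0.97 and 2.37 points for the other 5.

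**Figure D1:**
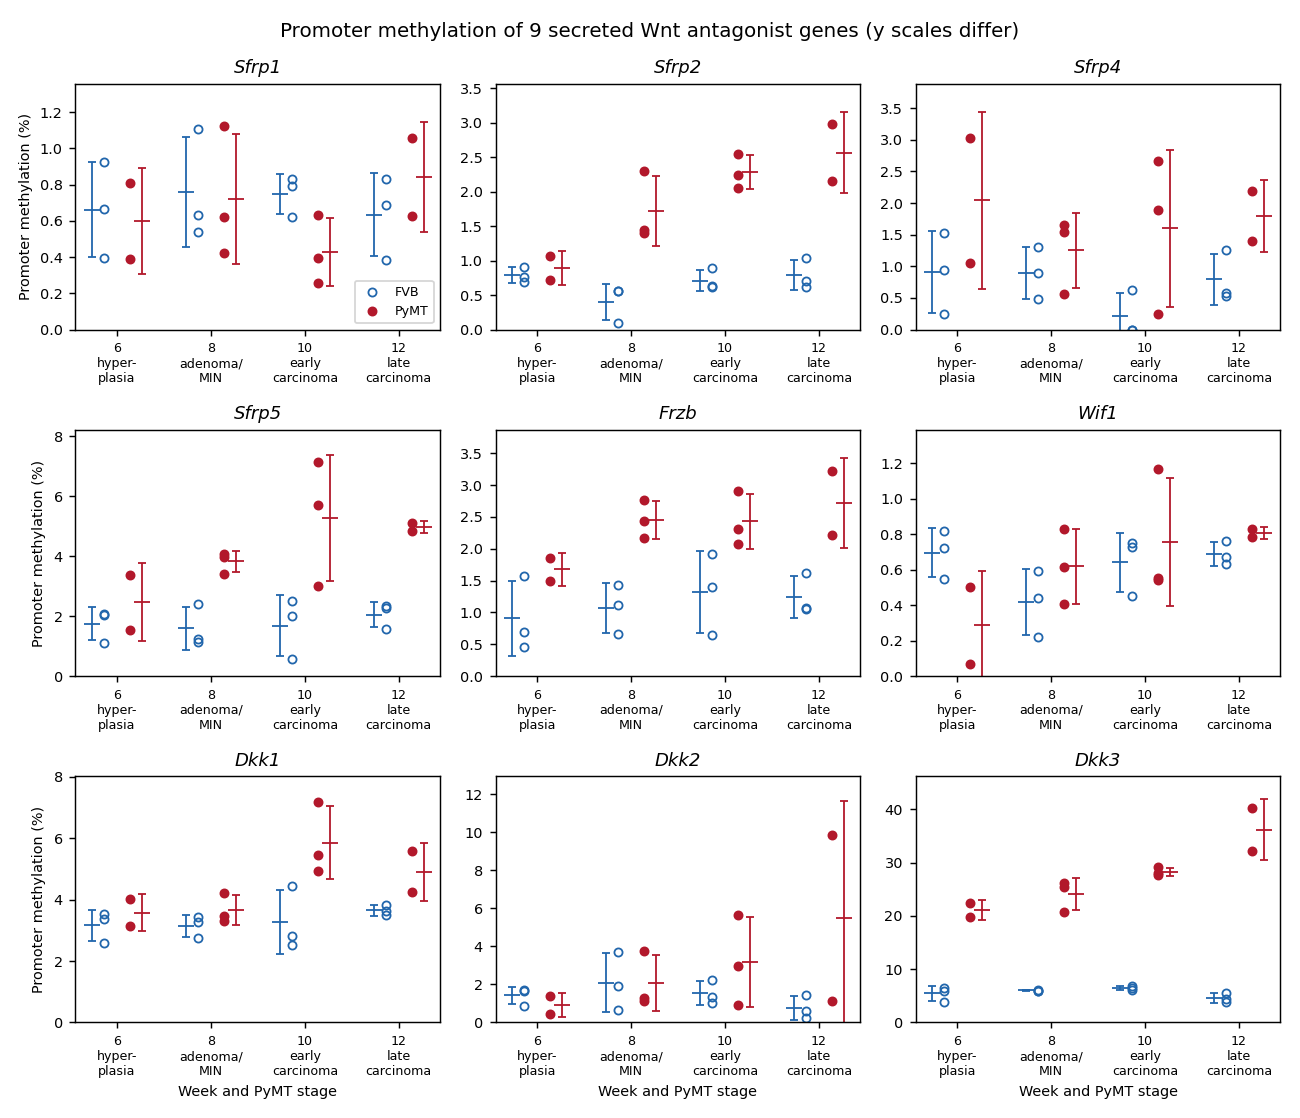
Mean promoter methylation (percent of reads methylated) of each gene in every sample, by week and PyMT stage, on a y scale of its own. Filled circles are PyMT samples and open circles FVB samples, dashes with bars are the group mean and SD, and bars are cut at 0. The Dkk3 points of PyMT lie between 19.8% and 40.2%, above all FVB points, whereas Sfrp1 and Wif1 stay at or below 1.17% in both.

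Among the Wnt-binding Sfrp genes, Sfrp2 (chr3:83766321-83774314, 64 promoter positions) showed a gain from adenoma/MIN on. Its promoter methylation level in PyMT was 0.72% and 1.07% at week 6, and 1.44%, 1.41% and 2.30% at week 8. It was 2.05%, 2.25% and 2.55% at week 10, and 2.98% and 2.15% at week 12. In the FVB samples it ran from 0.10% to 1.04% with a median of 0.66%. The groups overlapped at week 6 and not at weeks 8, 10 and 12. The mean difference over stages was 1.19 points (SE 0.13, limma adjusted p = 1.23e-06), and 9 of the 10 PyMT samples lay above all 12 FVB samples. Within 500 bp of the start the weekly calls were lost, with differences of 0.67, 0.46 and 0.52 points at weeks 8, 10 and 12, although the mean over stages was still called (0.46 points, adjusted p = 0.00432).

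The Sfrp2 gain sat in the coding stretch printed above, 486 to 709 bp downstream of the TSS. This cluster of 20 positions, where positions at most 100 bp apart were joined, had 1.25% and 2.13% methylation in the hyperplasia samples and 6.98% and 4.86% in the late carcinoma samples. The FVB samples ran from 0.25% to 2.20%. PyMT was higher by 2.78 points (SE 0.29, adjusted p = 5.92e-07), whereas the 37 positions just after the start differed by 0.27 points (SE 0.12, adjusted p = 0.0779). Within the stretch chr3:83766931 stood at 3.41%, 8.55%, 12.2% and 17.9% over the 4 stages, and was a hyper-DMC at both carcinoma stages. With a correction for the spread between mice, Sfrp2 kept 1 hyper-DMC in early carcinoma and 0 in late carcinoma, from 1 and 2. A cluster of 6 positions at -368 to -318 bp was higher by 0.82 points (SE 0.33, adjusted p = 0.0487), a call that was lost without FVB week 8 replicate 2 (0.78 points, adjusted p = 0.0760), and without PyMT replicate 3, FVB replicate 1 or FVB replicate 2 at all weeks (0.44 to 0.71 points).

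Frzb (chr2:80411970-80447396), the Sfrp3 gene, gained methylation away from its start. Its 4 upstream positions printed above, at -1083 to -936 bp from the TSS, had 4.64% and 4.77% methylation in the hyperplasia samples. The adenoma/MIN samples had 6.78%, 7.64% and 4.63%, the early carcinoma samples 10.4%, 6.58% and 9.54%, and the late carcinoma samples 7.21% and 8.18%. All FVB samples were at or below 2.81%, so the groups did not overlap at any stage. The difference was 5.40 points (SE 0.54, adjusted p = 2.97e-07). For the promoter as a whole it was 1.18 points (SE 0.20, adjusted p = 0.000114), and it turned to -0.40 points when the promoter was limited to 500 bp around the TSS. That width leaves out the upstream positions and the 17 positions at 526 to 948 bp, so its value rests on few positions. The upstream position chr2:80448479 reached 23.5% in early carcinoma against 2.87% in FVB, and was at 11.7% against 5.23% in late carcinoma.

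Sfrp5 (chr19:42197971-42202252) was covered at 16 positions that straddle its TSS. Its methylation level in PyMT was 3.38% and 1.55% at week 6, 3.41%, 3.98% and 4.07% at week 8, 5.69%, 3.01% and 7.13% at week 10, and 5.10% and 4.83% at week 12. The FVB samples ran from 0.55% to 2.51% with a median of 2.02%. Only the hyperplasia group overlapped its controls. The mean difference of 2.37 points (SE 0.42, adjusted p = 0.000176) was the second in size among the 9 promoters.

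Sfrp4 (chr13:19623175-19632825) was higher by 0.97 points (SE 0.30, adjusted p = 0.0172) over 11 positions, with PyMT samples between 0.24% and 3.03% and FVB samples between 0% and 1.53%. The groups overlapped at all stages but late carcinoma. The call was lost with a coverage minimum of 20 reads (0.39 points, adjusted p = 0.0563) without PyMT replicate 1 (0.58 points, adjusted p = 0.133), without FVB replicate 1 (0.94 points, adjusted p = 0.0678) and without FVB replicate 2 (0.97 points, adjusted p = 0.0684), and no stage was called on its own.

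Sfrp1 and Wif1 showed no promoter difference that passed the test. The Sfrp1 promoter (chr8:23411502-23449632), with 75 positions the most covered of the 9, stood at 0.63% ± 0.29 (SD, n = 10) in PyMT and 0.70% ± 0.21 (SD, n = 12) in FVB. The difference was -0.05 points with an SE of 0.11 (adjusted p = 0.784). The Wif1 promoter (chr10:121034004-121100642) stood at 0.63% ± 0.30 (SD, n = 10) and 0.61% ± 0.17 (SD, n = 12), a difference of 0.01 points with an SE of 0.09 (adjusted p = 0.975). In hyperplasia all Wif1 promoter values of PyMT lay below those of their controls, and in late carcinoma all lay above. In neither promoter was any position a DMC at any stage, although the 500 bp around the main Sfrp1 cluster hold 61 CpGs and those around the Wif1 promoter cluster hold 33.

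**Figure D2:**
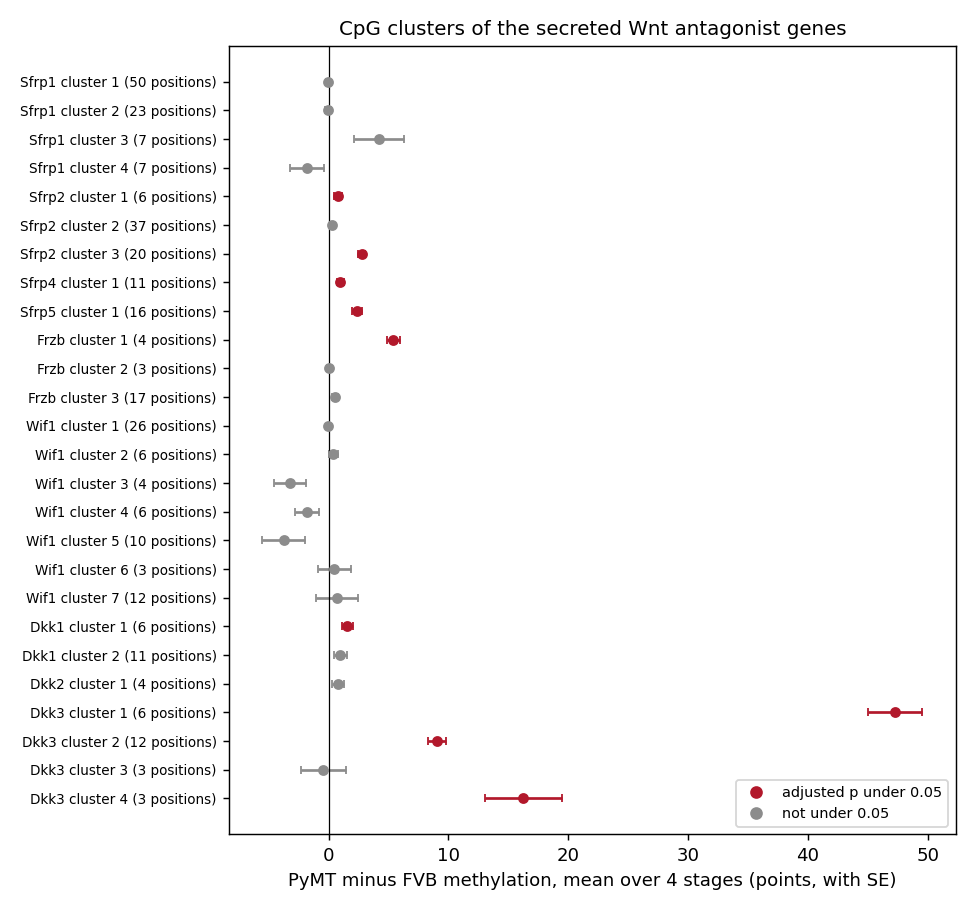
PyMT minus FVB methylation in points, averaged over the 4 stages, for the 26 CpG clusters of at least 3 positions in the 9 genes. Points are limma estimates with SE bars, red where the adjusted p was under 0.05, and clusters are numbered in the direction of transcription. The 9 red points all lie right of 0, with Dkk3 cluster 1 at 47.3 points and the next, Dkk3 cluster 4, at 16.3 points.

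Of the 26 CpG clusters, 9 were called higher in PyMT over the 4 stages, 0 were called lower, and at an unadjusted limma p under 0.05 the counts were 11 and 1. Across all 84563 clusters 16.6% were called higher and 31.6% lower. All clusters of Sfrp2, Sfrp4, Sfrp5, Frzb, Dkk1 and Dkk2 had FVB means at or below 4.65%, with little room to fall. The shares called lower are therefore not comparable with those of all clusters. This holds for the counts by stage and for groups that do not overlap as well. By stage, 2, 5, 7 and 6 clusters were called higher at weeks 6, 8, 10 and 12, against 3.84%, 7.58%, 10.2% and 10.4% of all clusters. A single cluster, in the Wif1 body, was called lower, at week 10, where 20.4% of all clusters were. At weeks 6, 8 and 12, where 10.7%, 16.6% and 21.3% of all clusters were called lower, limma called 0 lower and none was lower at an unadjusted p under 0.05. Without PyMT replicate 2, 3 clusters were called lower over all stages, all in the Wif1 body. Samples of PyMT and FVB did not overlap in 3 of the 26 clusters, all with PyMT above, where 3.49% of all clusters had every PyMT sample above and 9.25% had every PyMT sample below. These were the Frzb upstream cluster and both clusters near the Dkk3 start sites.

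Dkk1 (chr19:30545876-30549496), the LRP5/6 inhibitor, differed mainly in early carcinoma. Its promoter methylation level over 17 positions was 5.47%, 7.20% and 4.92% in the early carcinoma samples and 5.58% and 4.24% in the late carcinoma samples. The hyperplasia and adenoma/MIN samples lay between 3.15% and 4.22%, and the FVB samples between 2.52% and 4.45%. At both carcinoma stages the PyMT samples lay above the controls of their week, and before they overlapped. The early carcinoma difference was 2.60 points (SE 0.58, adjusted p = 0.00279), and over all stages it was 1.20 points (SE 0.31, adjusted p = 0.00471). The 6 positions 147 to 287 bp downstream of the start were higher by 1.58 points (SE 0.46, adjusted p = 0.00857), and the 11 positions at 621 to 700 bp by 0.99 points (SE 0.52, adjusted p = 0.132). The first of these calls was lost without PyMT replicate 1 (adjusted p = 0.0508) or FVB replicate 3 (adjusted p = 0.0520), and the second cluster was called without FVB replicate 3 (adjusted p = 0.04995).

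Dkk2 (chr3:132085292-132180304), which also binds LRP5/6, was covered at 6 promoter positions and rested on few samples. Late carcinoma replicate 1 was at 9.86% and replicate 3 at 1.15%, early carcinoma was at 2.96%, 5.63% and 0.91%, and FVB ran from 0.22% to 3.72%. The groups overlapped at every stage. In late carcinoma 1 of the 6 positions was a hyper-DMC, against 4.44% of all positions. With the correction for the spread between mice 0 were. The difference over stages was 1.46 points (SE 0.83, adjusted p = 0.218), and it ran from 0.07 to 2.93 points when replicates were left out in turn, with a call only without PyMT replicate 3 (adjusted p = 0.000377).

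Dkk3 (chr7:112116019-112159482, minus strand, with start sites at 112159482, 112159131 and 112158696) differed at every stage. Its promoter methylation level over 18 positions was 22.4% and 19.8% in hyperplasia, and 20.7%, 25.4% and 26.2% in adenoma/MIN. It was 29.2%, 27.7% and 28.1% in early carcinoma, and 40.2% and 32.2% in late carcinoma. The FVB samples ran from 3.77% to 6.80% with a median of 5.95%. All 10 PyMT samples thus lay above all 12 FVB samples, as they did in 4.51% of all promoters, with every PyMT sample below in 5.35%. The difference was 15.7 points (SE 1.81) in hyperplasia, 18.1 points (SE 1.62) in adenoma/MIN, 21.8 points (SE 1.62) in early carcinoma and 31.6 points (SE 1.81) in late carcinoma, with limma adjusted p-values of 5.96e-05, 2.43e-06, 1.01e-07 and 5.80e-09. Over all stages it was 21.8 points (SE 0.86, adjusted p = 1.17e-11). The exact permutation of the PyMT and FVB labels within week, over 40000 arrangements, gave p = 2.5e-05, the smallest it can give, and an adjusted p of 0.000195.

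The Dkk3 difference lay in 2 stretches. The 6 positions within 117 bp downstream of the middle start site (chr7:112159014-112159131), in the first exon of the 2 transcripts that begin there, were already partly methylated in FVB at 15.1% ± 2.70 (SD, n = 12). In PyMT the cluster stood at 58.3% and 52.2% in hyperplasia, and at 52.2%, 52.7% and 63.9% in adenoma/MIN. It stood at 69.2%, 61.2% and 72.3% in early carcinoma, and at 78.4% and 62.9% in late carcinoma. The difference was thus 40.1 points (SE 4.77, adjusted p = 6.46e-05) at the earliest stage and 58.4 points (SE 4.77, adjusted p = 5.58e-07) at the last. Each of the 6 positions was a hyper-DMC at all 4 stages with every PyMT sample above every FVB sample. The position chr7:112159103 had the highest levels, with a lowest, median and highest PyMT sample of 64.8%, 78.8% and 88.7% against 5.13%, 21.7% and 30% in FVB.

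The 12 positions around the upstream edge of the second exon, printed above, were nearly unmethylated in FVB at 0.87% ± 0.44 (SD, n = 12). This exon (chr7:112158183-112158418) is shared by all 4 transcripts, and its bases up to 112158395 are coding in all 4, the rest being coding in 1. In PyMT the cluster had 4.41% and 3.62% methylation in hyperplasia, and 4.89%, 11.8% and 7.38% in adenoma/MIN. It had 9.17%, 11% and 6.00% in early carcinoma, and 21.1% and 16.8% in late carcinoma. The mean difference was 9.06 points (SE 0.75, adjusted p = 3.63e-08), and hyperplasia alone was not called (3.44 points, SE 1.57, adjusted p = 0.172). Within the stretch the highest levels were at the first 5 capital CpGs of the printed sequence, from chr7:112158430 to chr7:112158405. The position chr7:112158414 stood at 9.34%, 14.7%, 20.8% and 45.6% over the 4 stages and chr7:112158405 at 9.61%, 16.3%, 17.3% and 42.5%. In late carcinoma these 5 positions were between 29.5% and 45.6%, whereas the other 7 were between 0.852% and 9.92%.

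**Figure D3:**
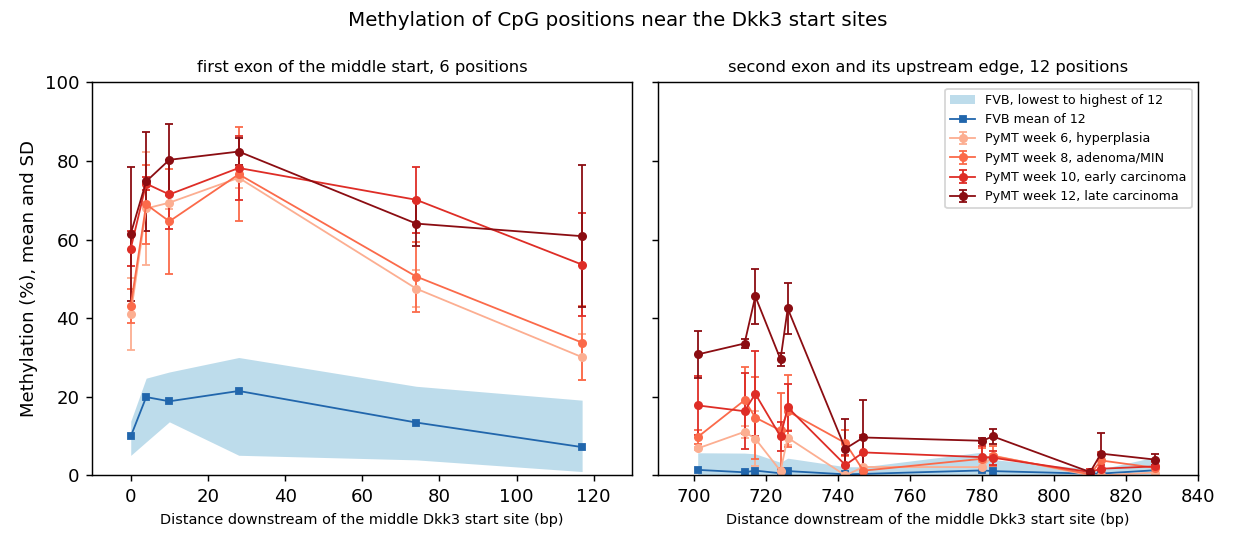
Methylation (percent) of the 18 covered CpG positions against their distance downstream of the middle Dkk3 start site, in the first exon (left) and around the second exon (right). Red points joined by lines are PyMT group means with SD, darker with stage, blue squares the FVB mean of 12 samples and the blue band their lowest to highest sample. The first exon is at 30.1% to 82.4% in every PyMT group, and the second-exon positions at 701 to 726 bp are at 29.5% to 45.6% in late carcinoma.

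The change from the premalignant (weeks 6 and 8) to the malignant stages (weeks 10 and 12) was tested as a difference of the PyMT minus FVB differences. Dkk3 was the only antagonist promoter called, with a gain of 9.86 points (SE 1.72, adjusted p = 0.00406), where 2.41% of all promoters were called higher and 0.122% lower. Within PyMT alone the malignant samples were higher by 9.66 points for Dkk3 (SE 1.28, adjusted p = 0.000145), by 1.12 points for Sfrp2 (SE 0.20, adjusted p = 0.00171) and by 1.77 points for Dkk1 (SE 0.46, adjusted p = 0.0267), against 5.67% of all promoters called higher. Within FVB no promoter of any gene was called in either direction by limma, and 935 of 16407 had an unadjusted p under 0.05. Among clusters, the Dkk3 second-exon cluster (7.45 points, SE 1.49, adjusted p = 0.0266) and the Sfrp2 coding cluster (2.98 points, SE 0.59, adjusted p = 0.0244) were called, where 0.577% of all clusters were called higher and 0.271% lower. The Dkk3 first-exon cluster had a change of 14.7 points (SE 4.53) and was not called (adjusted p = 0.159). The Dkk3 promoter change was not called without FVB replicate 1 (9.59 points, adjusted p = 0.0990) or FVB replicate 3 (9.49 points, adjusted p = 0.0707), where a replicate was left out at all weeks together. On the logit scale none of the 3 changes was called (adjusted p = 0.0628 for the promoter, 0.274 for the Dkk3 cluster and 0.199 for the Sfrp2 cluster). The Dkk3 second-exon cluster lost its call without PyMT replicate 1 and without each FVB replicate (5.67 to 7.69 points), and the Sfrp2 cluster without PyMT replicates 1 and 2 and without each FVB replicate (2.04 to 3.16 points).

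Bodies were measured in 3 genes. Dkk3 was higher in PyMT by 5.27 points (SE 1.18, adjusted p = 0.000789) over 11 positions, where 20% of all gene bodies were called higher and 46.4% lower. Its body stood at 83.1% to 88.8% in PyMT with a median of 85.9%, and at 74.5% to 87.8% in FVB with a median of 80.8%. By stage the Dkk3 body was called only in early carcinoma (8.07 points, SE 2.23, limma adjusted p = 0.00643), where 1506 of 11438 bodies were called higher. The difference was largest at 3 intronic positions far downstream (chr7:112122351-112122389), at 16.3 points (SE 3.20, adjusted p = 0.000405). They were called at both carcinoma stages and not before (adjusted p = 0.399 at week 6 and 0.103 at week 8). Their PyMT samples ran from 74.8% to 91.4% and their FVB samples from 56.1% to 89.9%, overlapping at weeks 6 and 8. Over the 16 body positions of Sfrp1 the difference was 1.95 points (SE 1.48, adjusted p = 0.258), and over the 36 of Wif1 it was -1.25 points (SE 0.93, adjusted p = 0.247).

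Within the Wif1 body a cluster of 10 positions in a coding exon (chr10:121083898-121083952) was lower in PyMT in early carcinoma, by 9.61 points (SE 3.39, adjusted p = 0.0404), and was named after its value was seen. The PyMT samples were at 76.8%, 86.2% and 72.8% and the FVB samples at 88.9%, 85.4% and 90.4%, so the groups overlapped. The call was lost without PyMT replicates 1 or 3 or any FVB replicate (-6.71 to -11.0 points) and with cluster gaps of at most 50 bp (adjusted p = 0.0516). Over all stages the difference was -3.72 points (SE 1.80, adjusted p = 0.103). Single positions of the Wif1 body moved in opposite directions, and those named here were chosen after their values were seen. Of the 36 body positions of Wif1, 9 were a hypo-DMC and 5 a hyper-DMC at least once over the 4 stages. By stage 2, 4, 4 and 3 were hypo-DMCs, against 6.01%, 7.1%, 8.42% and 8.53% of all positions. Hyper-DMCs were 0, 3, 4 and 4, against 2.62%, 3.2%, 4.39% and 4.44%. The most frequent loss was at chr10:121083898, in a coding exon, where PyMT had a lowest, median and highest sample of 35.3%, 50% and 59.3% and FVB 54.3%, 74.0% and 85.5%. It was a hypo-DMC at weeks 8, 10 and 12, and at each of the 4 weeks all PyMT samples were below all controls of that week. In the coding part of the last exon, printed above, chr10:121099801 stood at 11.5% in PyMT and 44.2% in FVB in late carcinoma. Within 200 bp of it, in the 3′ UTR, chr10:121099943 stood at 90.2% in late carcinoma against 66.5% in FVB, and its partner cytosine on the other strand, chr10:121099944, at 87.1% against 61.7%. The position chr10:121099985, in the UTR window printed above, stood at 66.7% against 45.6%. As a whole the 12 positions of this cluster did not separate the groups, which overlapped at every stage. With a correction for the spread between mice, Wif1 kept 0, 1, 3 and 2 hyper-DMCs and 1, 1, 2 and 2 hypo-DMCs at weeks 6, 8, 10 and 12, from 0, 3, 4 and 4 and from 2, 4, 4 and 3.

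**Figure D4:**
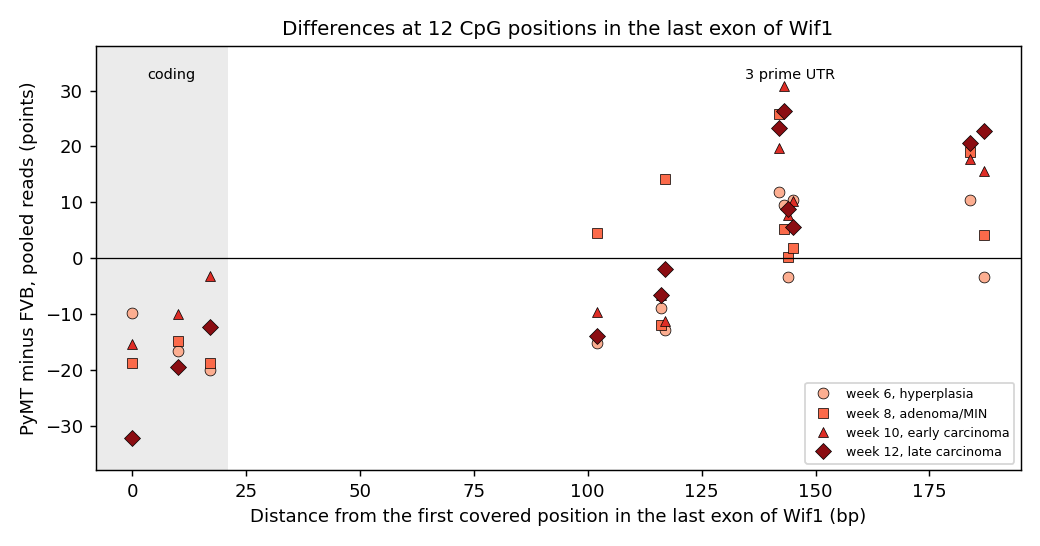
PyMT minus FVB methylation of the pooled reads, in points, at the 12 covered positions of the last Wif1 exon, against distance from the first of them in bp. Symbols give the stage and the shaded band the coding positions. The 3 coding positions lie below 0 at all 4 stages, between -32.2 and -3.30 points, and positions further on reach 30.8 points.

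In the Sfrp1 body few calls recurred. Of its 16 positions 5 were hyper-DMCs and 1 a hypo-DMC in hyperplasia, and 1 and 2 in adenoma/MIN. The counts were 2 and 0 in early carcinoma, with none of either in late carcinoma. Of all positions 2.62%, 3.2%, 4.39% and 4.44% were hyper-DMCs at these stages, and 6.01%, 7.1%, 8.42% and 8.53% hypo-DMCs. The 6 Sfrp1 positions called hyper and the 3 called hypo included 2 called at more than a single stage, both hyper. With the correction for the spread between mice 1 hyper-DMC of Sfrp1, in early carcinoma, was left.

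In windows of 500 bp the 9 clusters called higher over all stages held 10 to 44 CpGs with a median of 26, and the 17 others 4 to 61 with a median of 20. The Dkk3 first-exon and second-exon clusters held 22 and 29 CpGs and the Frzb upstream cluster 15, whereas the start-site clusters of Sfrp1 and Sfrp2, which were not called, held 61 and 48. Sfrp5, which was called, held 44. These are descriptions, with no test.

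The other genes of the Wnt pathway were counted in the same way, and no difference between the lists was tested. Of 11 further antagonist genes 7 were measured, and 2 promoters were higher and 1 lower over all stages. The called genes with the highest and lowest differences were Kremen2, a Dickkopf receptor, at 2.82 points (SE 0.53) and Znrf3, a Frizzled-degrading ligase, at -0.12 points (SE 0.04). Of 16 Wnt ligands 9 were higher and 3 lower, from Wnt2 at 3.87 points (SE 0.37) to Wnt10a at -4.05 points (SE 0.60). Of 13 receptors 5 were higher and 3 lower, and Fzd2 differed by 26.7 points (SE 1.16), more than Dkk3. R-spondins and their receptors counted 5 higher and 1 lower of 7, and transducers 3 higher and 1 lower of 11. Of the 5 Wnt target genes limma called 0 over all stages and none had an unadjusted p under 0.05, whereas the exact permutation test called 1 lower. In early carcinoma alone limma called 1 of them higher and 1 lower. The background was 17.0% in each direction.

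The promoters with a profile nearest to that of Dkk3 over the 22 samples, after each gene's own FVB mean was subtracted, were Zfp996 (root mean square distance 2.77 points), Rbmxl2 (2.78 points) and Ydjc (2.97 points). Their mean differences were 21.3, 20 and 19.5 points.

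Markers of the cell types of the gland moved between the groups as well. Calls are over all stages, where 17.0% of all promoters were called in each direction. Not every marker was measured. The counts cover 9 of 9 luminal, 4 of 6 fibroblast and 5 of 7 adipocyte markers. They also cover 3 of 7 basal and myoepithelial, 3 of 6 endothelial and 2 of 8 leukocyte markers. Of 9 luminal epithelial marker promoters 8 were lower in PyMT and 0 higher, and the mean of the list was 5.76% to 8.39% in PyMT and 13.0% to 18.0% in FVB. Of 4 fibroblast markers 3 were higher and 0 lower, with list means of 19.7% to 24.1% and 13.7% to 19.9%. Adipocyte markers counted 1 higher and 2 lower of 5 (33.7% to 40.1% and 40.8% to 47.0%), basal and myoepithelial markers 0 and 2 of 3 (23.7% to 29.2% and 26.0% to 36.6%). Endothelial markers counted 1 and 2 of 3 (31.1% to 37.0% and 31.1% to 38.8%), and leukocyte markers 1 and 1 of 2 (26.4% to 39.7% and 35.2% to 40.2%). Their part in the differences of the antagonist genes was not tested.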

How the data were processed

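ERRBS was compared between 10 PyMT and 12 FVB mammary samples, grouped by their labels (PyMT or FVB, week and replicate number). The authors aligned reads with Bismark (version not given in the sources used here) to mm10, removed 2 outlier samples, and deposited, per CpG cytosine with at least 10 reads and with strands apart, the read count (coverage) and the percent of reads methylated and unmethylated. From these deposited values methylated reads were recovered as coverage times percent. A sample held 1314077 to 1435757 positions at a mean coverage of 60.2 to 79.2 reads, and values at low coverage are less precise. ERRBS reads carry no molecular identifiers, so PCR copies cannot be told from separate molecules.

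DMCs were tested by logistic regression on pooled reads, which takes no account of the spread between mice. An overdispersion correction was an alternative. Promoter, body and cluster means (at least 3 positions, clusters with gaps of at most 100 bp) were fitted in limma 3.58.1 with 8 groups, and p-values were Benjamini-Hochberg adjusted over all features of a kind, with calls under 0.05. Contrasts were each stage, the mean of the 4 stages, and malignant minus premalignant. Single stages have groups of 2 or 3 mice, which share the estimate of spread. The labels do not say that mice of a group came from separate litters. The tests were tried on simulated data first. Over the 20 replicate pairs the chi-square per position averaged between 1.83 and 3.51, above sampling noise. Samples were kept apart in limma, whereas the DMC test pooled the reads of a group. Alternatives were coverage of 20 reads, merged strands, other promoter widths, a logit scale, weighted means, other cluster gaps, a replicate block, leaving out replicates, and, chosen after seeing the data, leaving out FVB week 8 replicate 2.

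All 9 members were named, with up to 3 clusters each (that with most positions within 2 kb of a TSS and those with the largest called differences), other Wnt genes by the highest and lowest called difference per list, and the 3 promoters nearest to the member with the largest difference. The members and lists were chosen with earlier results of these data known. Positions named singly were chosen after their values were seen. Each of the 327 positions matched a reference CpG. The software was R 4.3.3 and Python 3.11.15 with pandas 2.3.3, matplotlib 3.10.9, SciPy 1.17.1 and NumPy 2.4.6, with seed 7. Gene expression was not analysed here.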

Additional observations from a re-analysis of the deposited data

Results flagged for a closer look

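The PyMT minus FVB difference changed between the premalignant and the malignant stages in 3 items, each by the limma test of that change. It grew by 9.86 points at the Dkk3 promoter (adjusted p = 0.00406), by 7.45 points at the Dkk3 second-exon cluster (adjusted p = 0.0266), and by 2.98 points at the Sfrp2 coding cluster (adjusted p = 0.0244). The Dkk3 cluster is part of the Dkk3 promoter, so these are not separate results. Each call was lost on the logit scale, with adjusted p = 0.0628, 0.274 and 0.199.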

How the results depend on the processing

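The Dkk3 promoter difference over all stages ran from 20.8 to 22.6 points when replicates were left out, and stayed called under all alternatives. Same-numbered PyMT and FVB samples did not deviate together (correlations of -0.141 to 0.0869). Deviations within groups of 2 or 3 are tied to each other, so this cannot exclude a pairing or a shared batch. With the replicate number as a block, DMC counts were 9, 15, 22 and 22 (hyper) and 2, 4, 3 and 2 (hypo), 6 promoters and 9 clusters were higher, and no call changed, although the uncalled Wif1 promoter turned to -0.00813 points. Over the 4 stages a 25-point threshold left 5, 8, 7 and 12 hyper-DMCs, with 0, 0 and 1 hypo-DMCs at the first 3. The overdispersion correction left 6, 10 and 14 hyper-DMCs in hyperplasia, adenoma/MIN and late carcinoma, and 1, 1 and 2 hypo-DMCs at the first 3 stages. Leaving out replicates gave 7 to 16, 14 to 20, 20 to 24 and 20 to 26 hyper-DMCs, and 1 to 6, 3 to 6, 2 to 7 and 2 to 5 hypo-DMCs. Shares of all positions are not given for the block, the 25-point threshold or the left-out replicates. These counts therefore cannot be set against the other positions. The same holds for the promoter and cluster counts under the alternatives. The promoters called higher were 2 in hyperplasia upstream only and with 20 reads. Within 500 bp they were 1, 3 and 2 at the 3 later stages, and upstream only they were 2 in either carcinoma and 3 over all stages, where 6 genes could be measured. Leaving out replicates gave 2 to 5 in late carcinoma, with 2 without PyMT replicate 1. For the malignant change, 0 promoters were called on the logit scale and upstream only, 2 with 20 reads, and 0 to 3 without a replicate. For clusters it was 0 on the logit scale and 0 to 3 without a replicate. With gaps of at most 50 bp 1 cluster was called lower over all stages, and 0 to 3 without a replicate. The Frzb promoter turned to -0.67, -0.25 and -0.40 points within 500 bp in early carcinoma, late carcinoma and over all stages, where few of its positions remain. The uncalled Wif1 promoter turned to -0.0106 (logit), -0.0862 (upstream only) and -0.0188 (without FVB week 8 replicate 2), and ran from -0.120 to 0.0867 without a replicate, being negative without PyMT replicate 1 and FVB replicate 2. Causes were not tested. Among values of single genes and clusters under the alternatives, 498 kept direction and side of the threshold, 57 lost the call, 6 gained it and 9 reversed.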
